A study of Mus musculus with 8 samples.

Results

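The genes of the NFAT and NF-κB transcription factors and of 2 NF-κB inhibitors were examined for histone H3 lysine 27 acetylation (H3K27ac) in the mouse T cell precursor line P5424. The 10 genes were chosen by name: *Nfatc1*, *Nfatc2* and *Nfatc3* for NFAT, *Nfkb1*, *Nfkb2*, *Rel*, *Rela* and *Relb* for the NF-κB subunits, and *Nfkbia* and *Tnfaip3* for the inhibitors. They are 10 of 21142 protein-coding genes that could be placed on GRCm38 with a strand. The window of a gene was its body and 20 kb to either side, and its start was the outer RefSeq boundary unless another RefSeq start is named.

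H3K27ac marks the nucleosomes of active promoters and enhancers. NFAT proteins wait in the cytoplasm in a phosphorylated form and enter the nucleus after calcium, calmodulin and the phosphatase calcineurin have removed the phosphates, which ionomycin triggers by letting calcium in. PMA mimics diacylglycerol and activates protein kinase C, from which BCL10 and MALT1 lead to the IκB kinase, the loss of IκBα and the release of NF-κB. In thymocytes, these pathways carry the signals of the pre-T cell receptor and the T cell receptor.

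The series held 8 libraries, of which the 2 H3K27ac ChIP-seq libraries were used. They came from wt P5424 cells and from ΔIkE120 cells, 1 P5424 clone in which CRISPR/Cas9 had removed the IkE120 enhancer upstream of *Ikzf1* from both alleles. PMA/ionomycin was a treatment of the study, and whether the cells taken for ChIP-seq had received it is not stated in the sources used here. Each genotype had 1 library, so there is no replicate error, SD or test for any value, and the genotype cannot be told apart from the clone or the preparation.

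The authors called 34553 peaks in wt and 29902 in ΔIkE120 cells, which covered 25189952 and 22143580 bases, a ratio of 0.879. The sequencing depth is unknown, and peak heights were not compared between the lists. The −log10 q of a peak is the peak caller's measure of its significance, higher for a stronger peak, and a percentile is its rank by that measure in its own list. The labelled cell type was checked at gene starts (1 kb either side). All 12 T cell precursor markers, among them *Cd3e*, *Ptcra* and *Bcl11b*, had a peak there in both lists, against 1 of 5 B cell markers (*Ebf1*), 0 of 4 myeloid, 0 of 3 ES cell and 0 of 3 fibroblast markers. Of these, *Pou5f1* had a peak in both lists at another of its RefSeq starts.

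The 10 NFAT and NF-κB genes were marked in both genotypes. A peak lay within 1 kb of the start of 8 of them in wt and 8 in ΔIkE120 cells, where 44.5% and 43.9% of all genes had one. *Nfatc2* and *Nfkb2* lacked it in both lists, and both had a peak at a RefSeq start further inside the gene, so that 10 of 10 had a peak at some RefSeq start in either list, beside 47.5% and 46.8% of all genes. That count over every RefSeq start was chosen after seeing the data. No start was marked in wt only (1.11% of all genes) or in ΔIkE120 only (0.482%).

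The windows held 58 peaks in wt and 50 in ΔIkE120 cells. Peaks covered 45785 bases of the windows in wt and 35399 in ΔIkE120 cells. The median over the 10 genes was 4520 bases in wt and 3968 in ΔIkE120, above the 1336 and 1219 of all genes, in windows with a median of 68673 bases against 57230. Peaks covered more bases than at the median gene for 10 of 10 genes in wt and 9 in ΔIkE120 cells, *Nfkbia* being the exception.

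Fewer bases were covered in ΔIkE120 than in wt cells at 10 of 10 genes as called, though not at *Nfkb1*, *Nfkb2* and *Rel* relative to the whole lists. The same direction was seen at 66.3% of the 13651 genes with covered bases in both lists. Every share, quartile or median of ratios given below for all genes is over these 13651. Genes with bases in only 1 list have no ratio and are left out of them. With each ratio divided by that of the whole lists, a shift of 0.19 on the log2 scale that took the median of all genes from 0.937 to 1.07, 7 of the 10 were below 1 (36.2% of all genes), and *Nfkb1* (1.01), *Rel* (1.05) and *Nfkb2* (1.12) were above it. The ratio of covered bases had a median of 0.823 over the 10 genes, between the lower quartile of all genes (0.820) and their median. *Nfatc2* and *Nfkbia* were lower by 1.5 fold or more, 2 of 10 genes against 9.27% of the 13651 genes, and 0 were higher by that fold, against 2.10%. All of the 10 but *Nfkb2* had a ratio below the median of all genes as called.

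**Figure D1:**
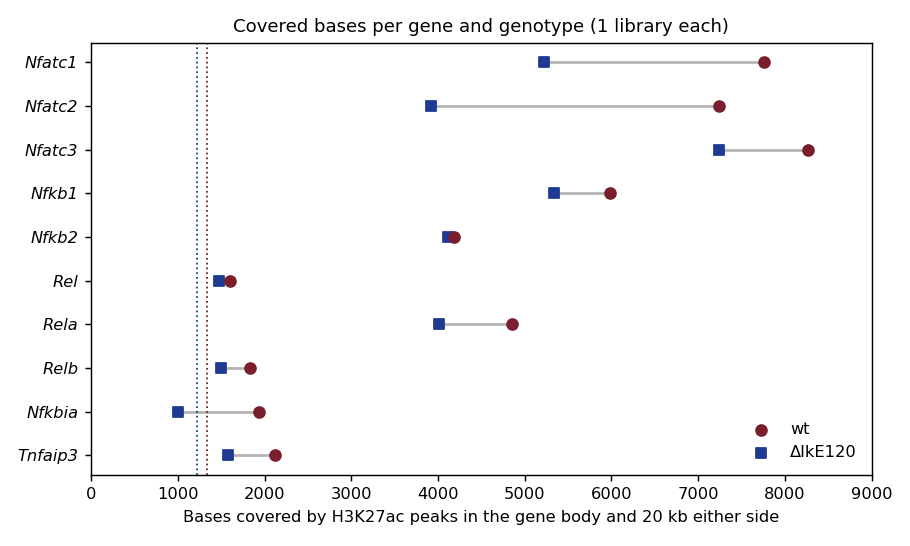
Bases covered by H3K27ac peaks in the window of each gene (horizontal axis, in bases), with circles for wt and squares for ΔIkE120 P5424 cells, 1 library each. Dotted lines give the medians of all genes, 1336 in wt and 1219 in ΔIkE120. The square lies left of the circle for all 10 genes as called, though relative to the whole lists *Nfkb1*, *Nfkb2* and *Rel* were not lower, with the widest gap at *Nfatc2* (7236 and 3921 bases) and the narrowest at *Nfkb2* (4188 and 4119 bases).

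Together the 3 windows of the NFAT genes, which are long (111720 to 165248 bases), had 23264 bases in wt and 16382 in ΔIkE120 cells, a ratio of 0.704. The 5 NF-κB subunit genes had 18458 and 16444 bases, a ratio of 0.891, and the 2 inhibitor genes 4063 and 2573 bases, a ratio of 0.633. Of the 10386 bases by which the 10 windows differed, 6882 were in those of the NFAT genes. As a share of the window, *Rela* (9.57%) and *Nfkb2* (8.15%) were above *Nfatc3* (7.40%), *Nfatc1* (5.28%) and *Nfatc2* (4.38%) in wt cells. The other subunit genes, *Nfkb1* (4.06%), *Relb* (2.90%) and *Rel* (2.16%), were below all 3 NFAT genes.

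*Nfatc2* encodes the NFAT protein that resting T cells hold ready in the cytoplasm. Its window on chromosome 2 (gene at chr2:168476410-168601657, minus strand) had 11 peaks and 7236 covered bases in wt and 6 peaks and 3921 bases in ΔIkE120 cells. The ratio of 0.542 (log2 −0.88) was reached or undercut by 4.28% of the 13651 genes with a ratio. No other of the 10 genes lost as many peaks.

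All 6 *Nfatc2* peaks of ΔIkE120 cells overlapped a wt peak, while 6 of the 11 wt peaks had no counterpart. Going along the gene, these 6 began 5.37, 39.1, 74.0, 101, 112 and 128 kb from the outer start, so 5 were in the gene body and the last lay past its end. Most were weak and short, with a −log10 q from 1.55 to 3.88 and 239 to 635 bases for the 5 in the gene. The peak past the end, at chr2:168472999-168473491, had a −log10 q of 7.32, above 69.8% of the wt list.

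At the start inside *Nfatc2*, fewer bases were called in ΔIkE120 cells. Around the RefSeq start at 168590365, wt cells had the longest peak of the window, 1856 bases at chr2:168589248-168591103 with a −log10 q of 7.52. ΔIkE120 cells had 930 bases at chr2:168589760-168590689 with a −log10 q of 6.89 and 292 bases at chr2:168589086-168589377, with 382 bases between them. Within 1 kb of that start, peaks took up 1739 bases in wt and 943 in ΔIkE120 cells. The promoter at this start was covered by peaks over 300 of 300 bases in both lists. The most significant wt peak was another, at chr2:168531434-168532092, at percentile 70.8 of its list, and the longest ΔIkE120 peak, at chr2:168515788-168517215, had 1428 bases against 1535 in wt.

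*Nfatc1* encodes the NFAT protein whose short form is itself induced by NFAT. Its window (gene at chr18:80606205-80713071, minus strand) had 8 peaks and 7757 covered bases in wt and 9 peaks and 5221 bases in ΔIkE120 cells. The ratio was 0.673 (log2 −0.57), just short of a 1.5-fold difference. More peaks thus covered fewer bases in ΔIkE120 cells.

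At *Nfatc1* most shared peaks were shorter, the exception being that at chr18:80696435-80697180, with 746 bases in wt and 927 in ΔIkE120 cells. The longest wt peak, downstream of the gene at chr18:80597231-80598635, had 1405 bases, and ΔIkE120 cells had peaks of 232 and 422 bases in its place. A wt peak of 934 bases in the gene, at chr18:80611697-80612630, was likewise matched by peaks of 398 and 211 bases. The peak at the start was weak, with a −log10 q of 2.42 and 716 bases in wt and of 1.55 and 394 bases in ΔIkE120 cells. The start itself was inside the wt peak and 37 bases outside the ΔIkE120 peak. The 1 wt peak without a counterpart, at chr18:80690366-80690861, had a −log10 q of 1.55.

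The most significant *Nfatc1* peak had nearly the same extent in both lists. It lay 4.35 kb inside the gene, at chr18:80707510-80708725 in wt, with 1216 bases at percentile 86.5 of its list. In ΔIkE120 cells it had 1205 bases at percentile 84.4, all of which were shared. This was not at the outer start of the gene, and inner starts were not checked because the promoter table has no entry for *Nfatc1*.

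*Nfatc3* encodes an NFAT protein abundant in thymocytes, and its window had the most covered bases of the 10. With 12 peaks and 8271 bases in wt and 13 peaks and 7240 bases in ΔIkE120 cells (gene at chr8:106058818-106130537, plus strand), the ratio was 0.875 (log2 −0.19). With the peaks below their list's median −log10 q left out, the ratio was 1.39. The peak over its outer start was left out by this rule in wt (810 bases, −log10 q 3.20) and kept in ΔIkE120 cells (899 bases, 5.22), so the 2 sums do not hold the same peaks. The genes nearest to it in covered bases over the 2 libraries were *Sipa1l3* (8266 and 7149 bases), *Bcl9l* (8147 and 7287 bases) and *Dus2* (8305 and 7125 bases), at distances of 0.0183, 0.0237 and 0.0238 in log2 bases. *Dus2* is a neighbour, and 4566 of its bases in wt and 3976 in ΔIkE120 cells lie in both windows and are counted for both genes. With 35 genes within 0.1, this likeness is common.

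The outer start of *Nfatc3* lay inside a peak in both genotypes, and a further peak followed it within 1 kb. In wt they were chr8:106058447-106059256 and chr8:106059647-106060599, and the latter had the highest −log10 q of the window, 16.1. In ΔIkE120 cells they were chr8:106058435-106059333 and chr8:106059626-106060592, with a −log10 q of 20.5 for the latter. The inner RefSeq start at 106059590 lay in the gap between them, which had 390 bases in wt and 292 in ΔIkE120 cells. Both start peaks were thus slightly longer in ΔIkE120 cells, against the direction of the window as a whole.

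Away from its start, *Nfatc3* was narrower upstream. The longest wt peak, chr8:106052790-106054125, ended 4.69 kb before the start and had 1336 bases, against 659 bases for its ΔIkE120 counterpart. The longest ΔIkE120 peak was in the gene, at chr8:106111336-106112585, with 1250 bases against 1103 in wt. Past the end of the gene, 1 wt peak (chr8:106133956-106134247, −log10 q 1.19) and 1 ΔIkE120 peak (chr8:106133518-106133728, −log10 q 1.86) were unmatched neighbours, and a ΔIkE120 peak upstream, chr8:106051278-106051563, was also unmatched with a −log10 q of 1.08. These 3 were weak, at percentiles 0.391, 11.1 and 0.0502 of their own lists. The peak at the far end, of 1061 bases in wt and 997 in ΔIkE120 cells, was at the start of *Pla2g15*.

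**Figure D2:**
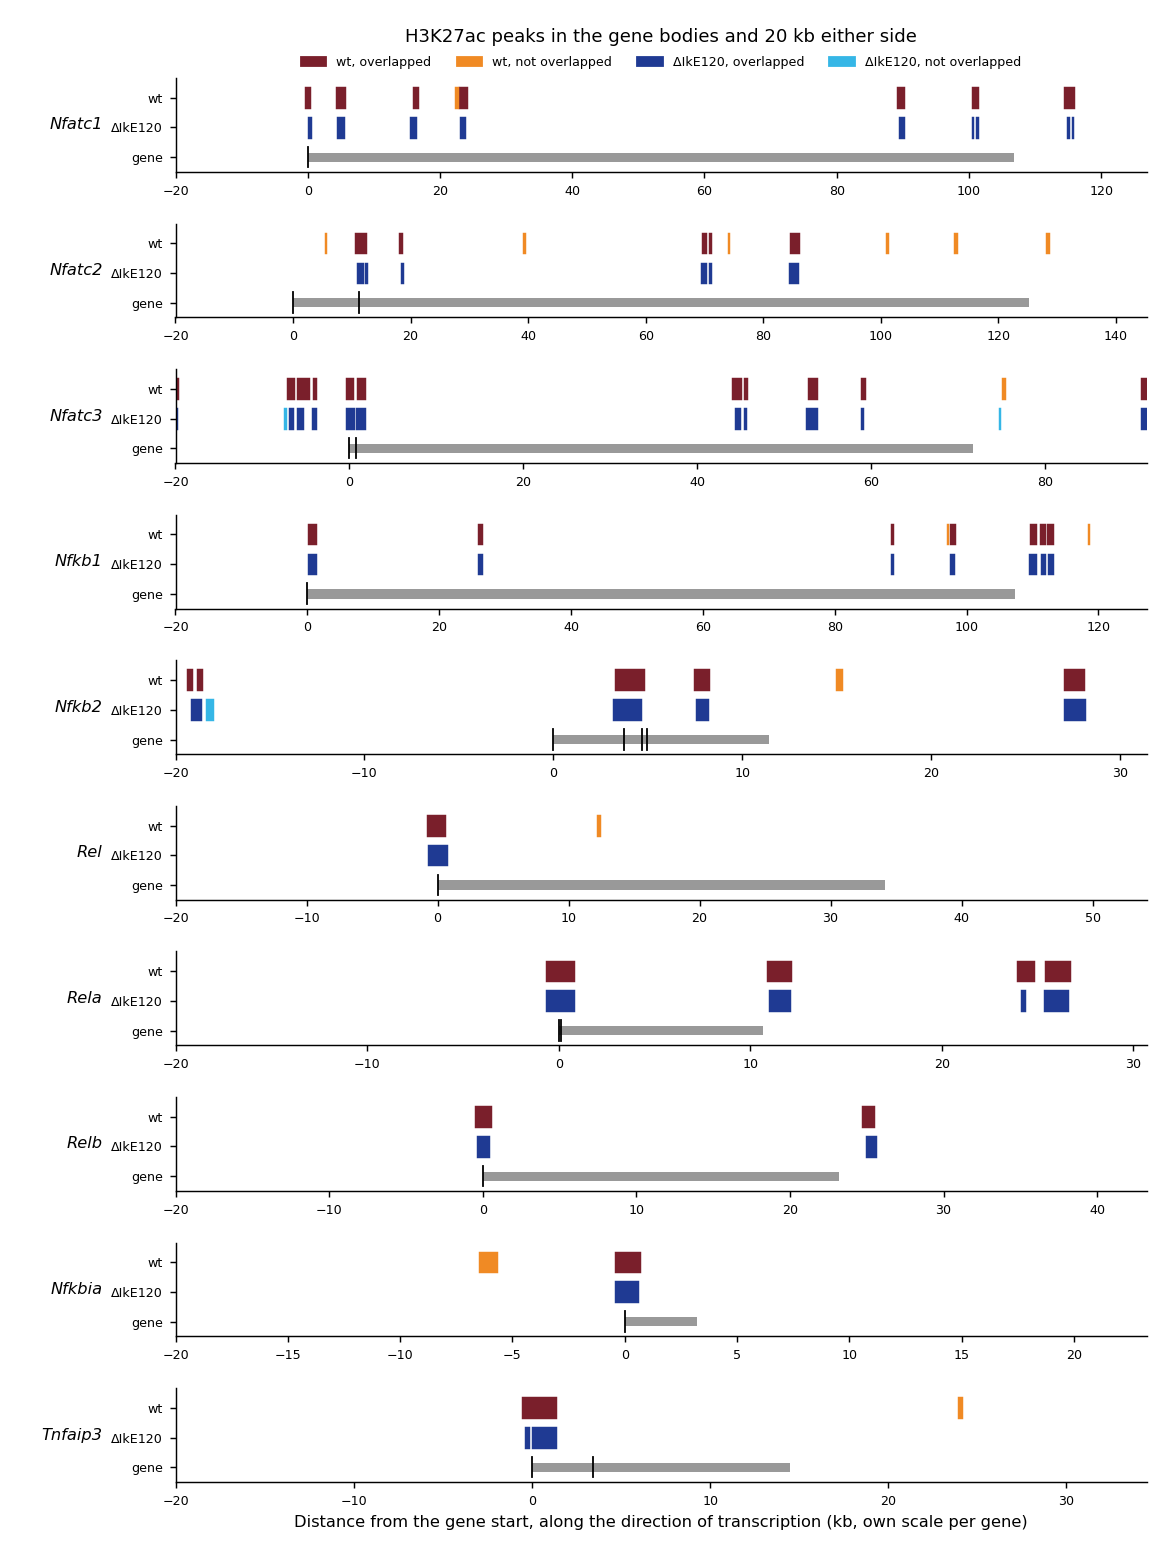
Maps of the 10 windows, with the distance from the gene start along the direction of transcription in kb and a scale of its own for each gene. Grey bars are gene bodies, black ticks RefSeq starts, dark red and dark blue boxes peaks of wt and ΔIkE120 cells that overlap a peak of the other list, and orange and light blue boxes peaks that do not. *Nfatc2* has 6 of the 14 orange boxes, and the only light blue boxes are 2 at *Nfatc3* and 1 at *Nfkb2*.

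*Rela* encodes p65, the subunit with the main activation domain of the canonical pathway. The gene (chr19:5637442-5648134, plus strand) and its flanks had 4 peaks in each list, with 4852 bases in wt and 4015 in ΔIkE120 cells, a ratio of 0.827 (log2 −0.27). The start peak had 1465 bases in both genotypes, at chr19:5636795-5638259 in wt and chr19:5636762-5638226 in ΔIkE120 cells, with 1432 bases shared. Its −log10 q of 19.6 and 24.4 placed it near the top of either list (percentiles 94.7 and 96.9).

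Most of the difference at *Rela* came from 1 distant peak. Downstream of the gene, at chr19:5661388-5662257, wt cells had 870 bases with a −log10 q of 2.07, and ΔIkE120 cells 240 bases with a −log10 q of 1.37. The next peak, at the start of *Sipa1*, had 1276 bases in wt and 1215 in ΔIkE120 cells. The start of *Rela* itself was therefore marked over the same length in both lists.

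*Rel* encodes c-Rel, a subunit of lymphoid cells. Its start peak, chr11:23770390-23771775 in wt and chr11:23770246-23771716 in ΔIkE120 cells, was the only peak of the window in ΔIkE120 cells. It had 1386 bases and a −log10 q of 21.4 in wt and 1471 bases and a −log10 q of 16.2 in ΔIkE120 cells. The lower total of the window (gene at chr11:23736847-23770969, minus strand), 1471 against 1601 bases and a ratio of 0.919 (log2 −0.12), was due to a wt peak of 215 bases in the gene, chr11:23758571-23758785, with a −log10 q of 1.74 and no counterpart. Without that peak the order is the reverse, as the start peaks show.

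*Nfkb1* encodes p105, the precursor of p50. Around the gene (chr3:135584655-135691969, minus strand) there were 9 peaks and 5984 bases in wt and 7 peaks and 5337 bases in ΔIkE120 cells, a ratio of 0.892 (log2 −0.17). The start peak was the longest and most significant of the window in both, with 1330 bases and a −log10 q of 20.6 in wt (chr3:135690587-135691916) and 1247 bases and a −log10 q of 21.9 in ΔIkE120 cells (chr3:135690639-135691885). It ended 53 bases inside the annotated start in wt and 84 in ΔIkE120 cells. The 2 unmatched wt peaks were short, 215 bases at chr3:135573331-135573545 and 223 at chr3:135594758-135594980, with a −log10 q of 2.02 and 1.73.

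*Nfkb2* encodes p100, the precursor of p52 in the non-canonical pathway, and had the ratio nearest to 1 of the 10 genes as called with 20 kb flanks, though not with 10 kb flanks (0.809) or relative to the whole lists (1.12). Its window (gene at chr19:46300994-46312400, plus strand) had 6 peaks and 4188 bases in wt and 5 peaks and 4119 bases in ΔIkE120 cells, a ratio of 0.984 (log2 −0.02). The outer start was 3283 bases from the nearest wt peak and 3168 from the nearest ΔIkE120 peak. The peak at the inner RefSeq starts was chr19:46304277-46305797 in wt, over both 46304737 and 46305695, with 1521 bases and a −log10 q of 4.53. In ΔIkE120 cells it was chr19:46304162-46305611, with 1450 bases and a −log10 q of 4.23, and lay over the first of these starts but ended 84 bases before the second. These lie near the middle of the lists, at percentiles 53.7 and 47.9, and without the peaks below their list's median the ratio of the window was 0.327. This peak and that in the gene (4.93 and 4.22) were above the median of the wt list, 4.12, and below that of the ΔIkE120 list, 4.47.

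The most significant peak in the *Nfkb2* window belonged to its neighbours. It lay at the starts of *Psd* and *Fbxl15*, at chr19:46328024-46329088 in wt, and had a −log10 q of 11.4 there and of 12.1 in ΔIkE120 cells. The wt peak without a counterpart was at chr19:46315984-46316266 (−log10 q 1.35) and the ΔIkE120 one at chr19:46282611-46282995 (−log10 q 3.09), the latter beside a pair of wt peaks of 227 and 309 bases. The peaks of *Nfkb2* proper thus had modest significance in both genotypes.

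*Relb* encodes the partner of p52. Around the gene (chr7:19606217-19629438, minus strand) lay 2 peaks in each list, with 1833 bases in wt and 1502 in ΔIkE120 cells, a ratio of 0.819 (log2 −0.29). The start peak had 1030 bases and a −log10 q of 7.07 in wt (chr7:19628920-19629949) and 828 bases and a −log10 q of 9.19 in ΔIkE120 cells (chr7:19629003-19629830). The other peak, at the start of *Clasrp*, had the highest fold enrichment in the 10 windows, 6.25 in wt and 6.32 in ΔIkE120 cells, as the authors' peak caller gave it.

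The inhibitor genes had 1 or 2 peaks in a list, as did *Rel* and *Relb*. *Nfkbia* encodes IκBα, which holds NF-κB in the cytoplasm and is itself switched on by NF-κB. Its window (gene at chr12:55489409-55492647, minus strand) had 2 peaks and 1938 bases in wt and 1 peak and 1000 bases in ΔIkE120 cells, a ratio of 0.516 (log2 −0.95). Of the 13651 genes with a ratio, 3.69% reached or undercut it. The start peak was of similar length, with 1110 bases and a −log10 q of 15.4 in wt (chr12:55491972-55493081) and 1000 bases and a −log10 q of 14.6 in ΔIkE120 cells (chr12:55492074-55493073).

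The low ratio of *Nfkbia* rested on 1 peak. That wt peak lay 5.68 kb upstream of the start, at chr12:55498327-55499154, with 828 bases and a −log10 q of 3.85, below the median of its list (4.12). Over the gene body alone the ratio was 0.849, without the peaks below their list's median 0.901 and with 50 kb flanks 0.706, none of them past 1.5 fold. Under the other 4 alternatives it stayed past that fold, at 0.516 with 10 kb flanks, with as many peaks from each list and without peaks at starts of other genes, and at 0.587 relative to the whole lists. For *Nfatc2* the ratio was past 1.5 fold under each of the 7 alternatives, from 0.281 to 0.616, though it was 0.542 as before under 3 of them. The lowest came without the peaks below their list's median, where a wt peak at 4.24 was kept and a ΔIkE120 peak at 4.39 was not.

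*Tnfaip3* encodes A20, a ubiquitin-editing enzyme that ends NF-κB signalling. In and around the gene (chr10:19000910-19015410, minus strand) there were 2 peaks in each list, with 2125 bases in wt and 1573 in ΔIkE120 cells, a ratio of 0.740 (log2 −0.43). The start was covered by a wt peak of 1905 bases, chr10:19014068-19015972, with a −log10 q of 11.8. In ΔIkE120 cells there were a peak of 1338 bases, chr10:19014050-19015387, with a −log10 q of 13.4, and a peak of 235 bases, chr10:19015568-19015802, with a −log10 q of 4.46.

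The 180 bases between the ΔIkE120 peaks held the annotated start of *Tnfaip3*, 23 bases from the nearest edge. Within 1 kb of the start, peaks took up 1563 bases in wt and 1213 in ΔIkE120 cells. The other wt peak, chr10:18991291-18991510, past the end of the gene, had 220 bases, a −log10 q of 2.42 and no counterpart. So the start of *Tnfaip3* was marked in both lists, with peaks called as a continuous stretch in wt and as a pair of stretches in ΔIkE120 cells.

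Over the 10 windows, peaks at gene starts and peaks elsewhere differed in how much was called. Peaks within 1 kb of a known start of the 10 genes, or of the outer start of a neighbouring gene, covered 17873 bases in wt and 16136 in ΔIkE120 cells, a ratio of 0.903, against 0.969 in the whole lists. Inner starts of *Nfatc1*, *Nfkb1* and *Relb* and of neighbouring genes were not used, so a peak at one of them counted as away from starts. Peaks away from starts covered 27912 and 19263 bases, a ratio of 0.690, against 0.810 in the whole lists. In the windows as in the whole lists, the bases missing from the ΔIkE120 list were mainly away from starts.

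The same held for peaks without a counterpart. Of the wt peaks in the windows, 14 of 58 (24.1%) shared no base with a ΔIkE120 peak, beside 25.6% of the whole wt list. Of the ΔIkE120 peaks, 3 of 50 (6.00%) shared no base with a wt peak, beside 13.6% of the whole list. The wt share was thus near that of the list and the ΔIkE120 share below it, on 3 peaks. With as many wt peaks as ΔIkE120 peaks, ranked by −log10 q, 8 of 50 wt and 4 of 50 ΔIkE120 peaks of the windows were unmatched, beside 18.6% and 17.7% of the 29902 peaks of each list. At gene starts, 0 of 15 wt and 0 of 17 ΔIkE120 peaks were unmatched, where the whole lists had few (5.30% and 2.83%). Away from starts, 14 of 43 wt peaks (32.6%) and 3 of 33 ΔIkE120 peaks (9.09%) were unmatched, against 35.3% and 19.8% in the whole lists.

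Unmatched wt peaks were weak and short. Their median −log10 q was 1.96 and their median length 288 bases, against 4.28 and 914 bases for the 44 matched wt peaks of the windows. In the whole wt list the medians of −log10 q were 2.15 and 5.79. The exceptions in the windows were the peak past the end of *Nfatc2* (7.32) and, with values close to the list's median, those in *Nfatc2* (3.88 and 3.70) and upstream of *Nfkbia* (3.85).

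Promoter sequences from RefSeq (GRCm38.p6, 250 bases before to 50 after a start) were matched for 7 of the 10 genes, with 12 promoters. *Nfatc1*, *Nfkb1* and *Relb* had no entry. The 10-base κB consensus, the recognition sequence of NF-κB, was searched on both strands. It occurred in 6 of the 12 promoters, which belong to 4 genes (*Nfkb2*, *Rel*, *Nfkbia* and *Tnfaip3*), and in 4.51% of 32851 promoters of the same length. Of the 3 *Nfkb2* promoters, those at 46305695 and 46305930 overlap and share a match.

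The NFAT core GGAAA was in 9 of the 12 promoters, against 61.3% of all, and the AP-1 site TGANTCA in 2 of 12 (the *Nfkb2* promoter at 46305695 and the outer one of *Tnfaip3*), against 7.81%. The NFAT core can lie inside a κB match, as in *Rel* and *Nfkbia*. A match is a stretch of letters and does not show binding.

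The promoters below are those with a κB match, 1 per gene and a further one for *Nfkb2*, where the peaks of the genotypes differ. They are printed 5′ to 3′ along the gene, with κB matches in capitals.

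*Nfkbia*, chr12:55492598-55492897, minus strand: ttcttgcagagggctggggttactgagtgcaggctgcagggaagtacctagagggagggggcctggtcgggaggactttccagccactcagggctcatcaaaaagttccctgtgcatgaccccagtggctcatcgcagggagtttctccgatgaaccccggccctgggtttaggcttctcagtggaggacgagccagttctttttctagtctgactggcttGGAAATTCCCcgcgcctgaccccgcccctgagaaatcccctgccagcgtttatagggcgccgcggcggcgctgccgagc

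*Rel*, chr11:23770920-23771219, minus strand: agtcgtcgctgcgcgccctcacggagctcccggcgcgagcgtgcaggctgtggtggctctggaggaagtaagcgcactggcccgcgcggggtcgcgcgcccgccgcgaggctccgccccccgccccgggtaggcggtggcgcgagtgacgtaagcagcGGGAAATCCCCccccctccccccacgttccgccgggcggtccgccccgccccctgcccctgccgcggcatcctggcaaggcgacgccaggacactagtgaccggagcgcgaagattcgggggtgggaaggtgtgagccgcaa

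*Nfkb2*, chr19:46304487-46304786, plus strand: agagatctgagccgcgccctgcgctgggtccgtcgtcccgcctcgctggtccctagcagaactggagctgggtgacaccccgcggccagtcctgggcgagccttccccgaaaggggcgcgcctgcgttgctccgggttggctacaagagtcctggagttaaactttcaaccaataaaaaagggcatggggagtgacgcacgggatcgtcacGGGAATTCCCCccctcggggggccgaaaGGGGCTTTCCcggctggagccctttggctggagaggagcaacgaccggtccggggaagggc

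*Nfkb2*, chr19:46305445-46305744, plus strand: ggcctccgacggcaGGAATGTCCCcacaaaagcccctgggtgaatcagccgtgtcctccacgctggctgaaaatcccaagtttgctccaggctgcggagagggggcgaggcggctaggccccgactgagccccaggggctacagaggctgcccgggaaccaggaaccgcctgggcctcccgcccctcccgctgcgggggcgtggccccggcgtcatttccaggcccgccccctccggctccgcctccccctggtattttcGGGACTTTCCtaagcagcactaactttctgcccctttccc

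*Tnfaip3*, chr10:19015361-19015660, minus strand: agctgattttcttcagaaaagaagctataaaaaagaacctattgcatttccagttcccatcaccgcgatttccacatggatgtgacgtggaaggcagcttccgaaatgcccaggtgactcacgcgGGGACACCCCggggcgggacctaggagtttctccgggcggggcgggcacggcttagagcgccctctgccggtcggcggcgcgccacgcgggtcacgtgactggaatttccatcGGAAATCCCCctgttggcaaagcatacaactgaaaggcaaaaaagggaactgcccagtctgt

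All 300 bases of the *Nfkbia* and *Rel* promoters and of the *Nfkb2* promoter at 46304737 lay inside peaks in both genotypes, κB matches included. At the *Nfkb2* start 46305695, 300 bases of the promoter were in a wt peak and 167 in a ΔIkE120 peak. The match at chr19:46305705-46305714 was covered in wt only. The other match of this promoter, at chr19:46305459-46305468, and its AP-1 site were covered in both lists. At *Tnfaip3*, wt peaks took up 300 bases and ΔIkE120 peaks 120. Both of its κB matches, at chr10:19015413-19015422 and chr10:19015526-19015535, and its AP-1 site lay in the gap between the ΔIkE120 peaks. So the *Tnfaip3* matches and the *Nfkb2* match at chr19:46305705-46305714 were inside a called peak in wt and outside in ΔIkE120 cells. This concerns the edges of called peaks, and the signal outside them was not measured. A gap between peaks also lay at the inner *Nfatc3* start, with 390 bases in wt and 292 in ΔIkE120 cells.

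The other genes of both pathways, 70 in 8 lists, are given for comparison. A start peak was present for 53 in wt and 54 in ΔIkE120 cells, with 53 in both and 16 in neither, beside 44.5% and 43.9% of all genes, which also apply to the count of each list. Their ratio of covered bases had a median of 0.918, between the 0.823 of the 10 genes and the 0.937 of all genes with a ratio. Of the 67 genes with bases in both lists, 7 were lower by 1.5 fold or more, near the 9.27% of all genes with a ratio, with *Ccl3* and *Ccl4* counted from the same peaks, and 0 were higher, beside 2.10%.

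Of the calcium side, 14 of 15 genes of calcium entry and calcineurin had a start peak in both lists, the exception being the calcium sensor gene *Stim1*, which had one at another RefSeq start. Their median ratio was 0.985, and *Itpr2*, an inositol trisphosphate receptor gene, had the most wt bases, 12651 against 13661 in ΔIkE120 cells. Of the other NFAT family genes, *Nfat5* (2976 and 2846 bases) had a start peak, and *Nfatc4* had none and 1986 bases in wt against 313 in ΔIkE120 cells (0.158). Among 8 genes of NFAT inhibitors and kinases, 6 had a start peak in both lists, and *Gsk3b* had the most bases (4125 and 3615). *Rcan2* (555 and 310 bases, 0.559) and *Akap5* (393 and 0 bases, so without a ratio) had no start peak.

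Of the PKC side, 6 of 7 genes of diacylglycerol receptors had a start peak in both lists, all but *Prkce*, and *Prkch* had the most bases, 17802 in wt and 12445 in ΔIkE120 cells. In the BCL10, MALT1 and IκB kinase group, 12 of the 12 genes counted had a start peak in both lists, with a median ratio of 0.938 and the most wt bases at *Traf2* (4588 and 4893). No gene counted in either list differed by 1.5 fold.

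Of the other IκB family genes, 3 of 5 had a start peak in both lists, among them *Nfkbie* with 7309 and 6265 bases. *Nfkbiz* and *Bcl3*, whose products act in the nucleus, had none, and *Bcl3* had 1697 bases in wt and 914 in ΔIkE120 cells (0.539). Among the deubiquitinases and partners of A20, 6 of 7 had a start peak in both, with the most bases at *Tnip1* (5020 and 4610). *Otulin*, for a linear deubiquitinase, had a start peak but 3401 bases in wt against 1176 in ΔIkE120 cells (0.346), and *Tnip3*, without a start peak, had 1283 and 784 bases (0.611).

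Of 14 target genes of the factors, 5 had a start peak in wt and 6 in ΔIkE120 cells, the addition being *Tnfrsf9*, and 8 had none in either: *Bcl2a1a*, *Il2*, *Il2ra*, *Egr2*, *Egr3*, *Tnfrsf4*, *Ccl3* and *Ccl4*. *Egr2* had a peak at another RefSeq start, and *Il2* and *Bcl2a1a* had no peak in the whole window in either list. *Il2ra* had the most bases in wt cells (7319, against 5314 in ΔIkE120 cells), where *Traf1* had more in ΔIkE120 cells (5804). *Ccl3* and *Ccl4*, which share the same peaks, had 1774 and 746 bases (0.421). These counts of start peaks are near the share of all genes (44.5% and 43.9%).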

How the data were processed

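H3K27ac peak lists of wt and ΔIkE120 P5424 cells were analysed, and the 6 4C libraries were not used here. The submitters' processing notes name MACS2 2.1.1, Bowtie2 2.3.4.3, Bowtie 1.0.0, deepTools 3.2.1 and GRCm38, without their roles. The authors deposited 1 list per library, with 9 columns: position, a score, a fold enrichment (ratio), and the −log10 of p and of q. The deposited score is the −log10 q scaled and rounded down. Depth and filters are not given in the sources used here, and a deeper library yields more and longer peaks, so values were ranked within a list only.

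Genes came from RefSeq (GRCm38.p6) and strands from its promoter table, or GENCODE M1 by symbol for 3650 genes, 3 of them among the 10. Exons were not used here. Peaks overlapped if they shared 1 base. Overlap code was tested on 80 simulated lists, with 0 differences in 5061 comparisons. A difference meant 1.5 fold. No test was run. Genes named are the 10, the pathway genes with a start peak in 1 list or none or past 1.5 fold, and the gene of each list with the most wt bases; of the peaks, those at starts, the most significant, the longest and the unmatched. Other peaks, the role and start groupings and the motifs were chosen after seeing the data. The genes and lists were chosen with earlier results of these data known, and 1 gene of the pathway lists is not reported here, so the counts are of the other 70. Python 3.11.15, numpy 2.4.6 and matplotlib 3.10.9 were used.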

Additional observations from a re-analysis of the deposited data

How the results depend on the processing

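Of 126 values under alternative settings, 103 stayed within 1.5 times the value given, 23 moved further and 0 reversed a 1.5-fold difference. The median ratio ranged from 0.778 to 0.937 over 7 settings, and the number of genes with a start peak from 7 to 10 in either list, with 500 bases or 2.5 kb around the start, fewer peaks, or any RefSeq start, which was chosen after seeing the data.

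With 50 kb flanks, peaks covered 71484 bases in wt and 57179 in ΔIkE120 cells, 5 ΔIkE120 peaks were unmatched and 1 gene, *Nfatc2*, was lower by 1.5 fold. Over gene bodies alone there were 36 wt peaks with 26679 bases, 8 unmatched, and 30 ΔIkE120 peaks with 21231 bases, 0 unmatched, and *Nfatc2* was again the 1 gene lower by 1.5 fold. Windows of another length hold other numbers of peaks by construction. Without the peaks below their list's median −log10 q, 24 wt peaks with 25571 bases, 7 unmatched, and 20 ΔIkE120 peaks with 20173 bases were left, and the genes lower by 1.5 fold were *Nfatc2* and *Nfkb2* (0.327), with *Nfatc3* at 1.39 and *Rel* at 1.06. With as many wt peaks as ΔIkE120 peaks, ranked by −log10 q, 8 wt peaks were unmatched, and *Nfkb1* (1.07), *Nfkb2* (1.12) and *Rel* (1.06) were above 1. Requiring 50% of a peak to be shared left 5 ΔIkE120 peaks unmatched. No paired analysis was possible because each genotype had 1 library.

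With 1 library and 1 clone per genotype and unknown depth, differences between the lists cannot be told apart from differences in depth or enrichment.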
